A study of Mus musculus with 28 samples.

Results

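The regions described here are the boundaries between topologically associating domains (TADs) that were present after 60 h of muscle differentiation and had no counterpart in proliferating cells. They were chosen from the Hi-C readout itself: a 40 kb bin of the 60 h boundary list was taken as gained when the growth-medium list held no boundary in that bin or in the bin on either side. The rule gave 393 gained bins of 2417 boundary bins at 60 h, which is 16.3% of the list. The other 2024 bins of the 60 h list had a growth-medium boundary within 1 bin and are called kept. In the opposite direction, 444 of 2467 growth-medium bins had no 60 h boundary within 1 bin and are called lost.

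The cells were C2C12, an established line of mouse myoblasts that carried no genetic change in any group. Growth medium (GM) held 20% fetal bovine serum and kept the cells dividing, and differentiation medium (DM) held 3% horse serum and let them fuse into myotubes. Hi-C, which counts contacts between distant DNA segments after cutting with MboI, was made from 3 libraries in GM and 3 at 60 h. ATAC-seq, which marks accessible DNA, was made from 2 libraries in each of these conditions, and RNA-seq from 3 libraries each in GM and at 12, 24, 48, 60 and 96 h. The boundary, domain, loop and peak files hold 1 list per condition, so nothing measured on them could be set against a spread between replicates. Those values are descriptions with no test, and tests were made on RNA counts alone. The RNA libraries held 24154680 to 36405121 counts each. The summed level of 5 myotube markers went from 31.9 to 33.0 CPM (counts scaled to the effective size of the library) in GM to 1200 to 1440 CPM at 60 h. Of the markers of other cell types, smooth muscle markers summed to 519 to 530 CPM in GM and 1470 to 1550 CPM at 60 h, with Myh11, their defining member, under 0.1 CPM in both. These are bulk samples, in which fewer cells of a type and less RNA per cell cannot be told apart.

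A TAD is a stretch of chromosome whose parts contact each other more often than they contact the neighbouring stretch. Cohesin, a ring-shaped complex, extrudes DNA loops until it meets the zinc finger protein CTCF bound in the blocking orientation, and many boundaries in mammals lie at such CTCF sites or at the starts of active housekeeping genes. Boundaries can limit which enhancers reach a promoter, and muscle regulatory DNA is commonly marked by the E-box bound by MyoD and myogenin.

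Promoter sequences near gained bins are shown first because they are the DNA in these bins for which letters could be read. Each runs 5′ to 3′ on the strand of its gene, from 250 bases before to 50 bases after a RefSeq start, with coordinates of GRCm38.p6, the assembly that mm10 names. Capitals mark a match to CAGCTG, the muscle-type E-box, or on either strand to a short form of the CTCF motif, which reads CCA, 2 free bases, AG, 2 free bases and GGC. Each printed promoter holds 1 match, so none overlap. The Mybpc1 promoter (chr10:88605103-88605402, minus strand) lay just outside a gained bin that falls within the gene. It was picked by hand as that of a muscle gene, and it overlapped an ATAC-seq peak of the 60 h list alone. Such a peak overlapped 5 of 500 promoters in or within 1 bin of gained bins, or 1.0%, against 1.67% of all promoters. The Tmem72 promoter, also with an E-box, was another of the 5, and its gene was not called changed at 60 h (log2 fold change −0.72). The promoters of Smim8 (chr4:34778317-34778616, minus strand), the predicted gene Gm51738 (chr1:188018384-188018683, minus strand) and the predicted gene Gm29873 (chr11:95687223-95687522, minus strand) are shown because they were the 3 promoters inside gained bins with the short CTCF motif.
Mybpc1: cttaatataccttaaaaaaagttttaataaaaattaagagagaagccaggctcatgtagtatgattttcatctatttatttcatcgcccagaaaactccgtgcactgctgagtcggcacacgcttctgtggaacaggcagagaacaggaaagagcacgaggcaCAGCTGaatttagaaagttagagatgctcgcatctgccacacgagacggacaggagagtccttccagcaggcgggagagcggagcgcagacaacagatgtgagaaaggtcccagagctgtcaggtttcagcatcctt
Smim8: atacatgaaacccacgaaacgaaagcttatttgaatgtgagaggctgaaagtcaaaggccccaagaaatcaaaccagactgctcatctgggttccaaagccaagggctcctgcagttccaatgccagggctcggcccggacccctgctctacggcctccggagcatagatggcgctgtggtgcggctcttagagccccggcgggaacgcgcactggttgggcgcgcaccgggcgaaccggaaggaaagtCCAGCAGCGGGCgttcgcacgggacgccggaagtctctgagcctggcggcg
Gm51738: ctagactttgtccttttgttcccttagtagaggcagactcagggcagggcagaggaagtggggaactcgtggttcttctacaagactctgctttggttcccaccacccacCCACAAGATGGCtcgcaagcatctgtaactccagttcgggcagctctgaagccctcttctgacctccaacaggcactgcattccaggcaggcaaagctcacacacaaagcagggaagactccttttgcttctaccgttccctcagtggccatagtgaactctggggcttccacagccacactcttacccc
Gm29873: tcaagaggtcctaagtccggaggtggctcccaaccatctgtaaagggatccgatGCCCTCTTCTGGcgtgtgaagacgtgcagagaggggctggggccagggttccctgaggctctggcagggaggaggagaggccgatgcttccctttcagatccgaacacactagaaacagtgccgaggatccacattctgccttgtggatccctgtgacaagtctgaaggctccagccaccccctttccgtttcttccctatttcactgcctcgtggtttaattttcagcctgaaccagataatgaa
The Smim8 and Gm51738 promoters overlapped a peak in both conditions, and the Gm29873 promoter overlapped one in GM and none at 60 h. The short CTCF motif stood in 3 of 156 promoters inside gained bins, or 1.92%, against 2.29% in kept bins, 5.16% in lost bins and 2.43% of all 32851 promoters listed. The E-box stood in 27 of the 156, or 17.3%, against 16.3% of all. The share of gained-bin promoters with either motif was therefore close to that of promoters at large. The rest of each 40 kb bin could not be read for motifs here.

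The gained boundaries were weak. Each boundary carries a strength score whose scale is not stated, and the gained bins had a median of 0.265 (interquartile range 0.142 to 0.487) against 1.02 (0.650 to 1.44) in kept bins. Lost bins had a median GM score of 0.255, so gained and lost boundaries covered the same low range. The gained scores ran from 0.00635 to 2.14. Of the 393 gained bins, 22, or 5.60%, reached the median of the whole 60 h list, 0.889. These scores come from the Hi-C calls that chose the bins.

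Gained bins nearer to a GM boundary had higher scores. The 148 bins just inside the rule, 2 bins from a GM boundary, had a median score of 0.370, and the 60 at 3 bins had 0.318. The 101 bins at 4 to 10 bins had 0.194, and the 84 farther off had 0.163. Just outside the rule, the 795 kept bins that lay 1 bin from their GM counterpart had a median of 0.851, and the 1229 kept bins in the same bin had 1.14. A gained bin at 2 bins was thus nearer in strength to the farther gained bins than to kept bins displaced by 1.

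**Figure D1:**
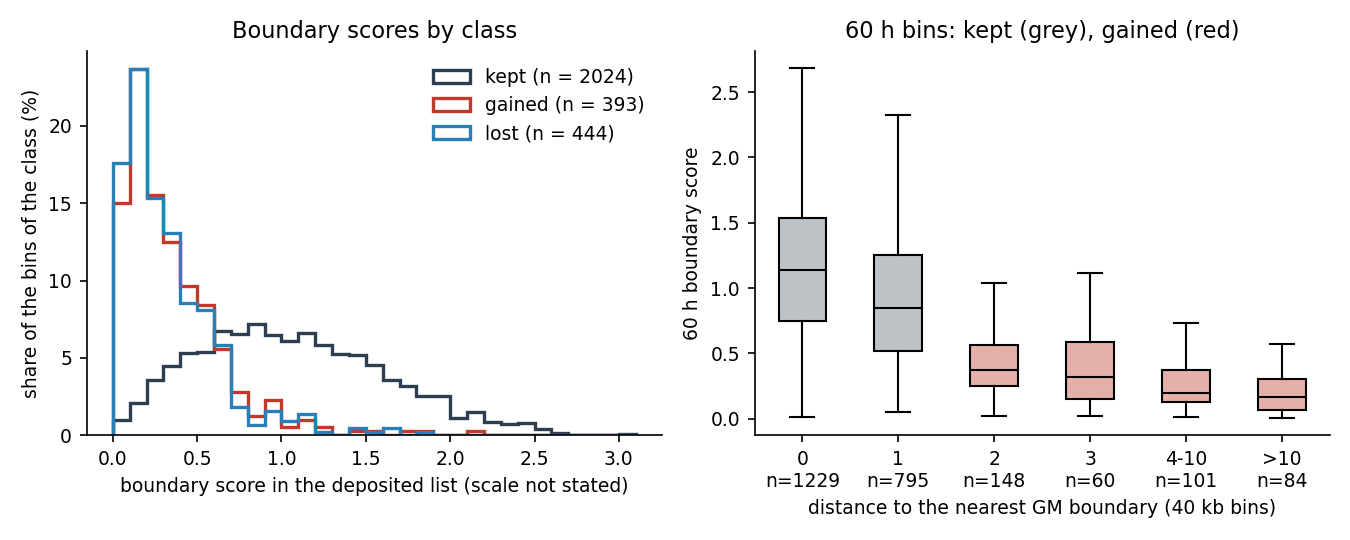
Boundary scores of the deposited lists. Left, the share of gained, kept and lost bins (%) by score. Right, the 60 h score by distance to the nearest GM boundary in 40 kb bins, with boxes for the interquartile range, lines for medians and whiskers to 1.5 times that range. Gained bins (median 0.265) sit far below kept bins (1.02), and the score is lower at each larger distance class.

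Most of the nearby gained boundaries had a lost boundary as their neighbour. Of 208 gained bins within 120 kb of a GM boundary, 202 had a lost bin as the nearest GM boundary and 6 had a kept one. The 202 had a median 60 h score of 0.361, and their lost neighbours had a median GM score of 0.346. The 185 gained bins farther than 120 kb from any GM boundary had a median of 0.180. Of the 22 strongest gained bins, 19 lay within 120 kb of a GM boundary and 21 had a lost bin as the nearest. The rule favours this pairing, because a GM boundary 2 or 3 bins away is kept only where a different 60 h bin lies beside it. A call that moved by 2 or 3 bins and a boundary formed anew were not told apart here.

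The strongest gained bins show the pattern one by one. The highest score, 2.14, was at chr4:94720001-94760000, which holds the start of Tek, the angiopoietin receptor, and a GM boundary with a score of 1.82 lay 80 kb away. The next, 1.85 at chr9:27080001-27120000, overlaps Jam3, a junctional adhesion molecule, and Ncapd3, a condensin subunit, and had a GM boundary of 1.59 at 160 kb. A score of 1.76 at chr2:90600001-90640000, between the genes of the phosphatase Ptprj and the nucleoporin Nup160, stood 80 kb from a GM boundary of 1.44. The bin of Zdhhc17, a palmitoyltransferase, at chr10:111000001-111040000 scored 1.54 and had a GM boundary of 1.45 at 80 kb. The bin of Tmeff1, a membrane protein with follistatin-like modules, at chr4:48560001-48600000 scored 1.43 with a GM boundary of 1.15 at 80 kb. The sixth, at chr14:89080001-89120000, scored 1.27 with a GM boundary of 1.1 at 120 kb. In each of these 6 places a lost GM boundary of similar score lay within 160 kb.

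Gained boundaries lay inside larger GM domains. Of the 393 bins, 380 fell within a GM domain, in 334 different domains. Taken over these 380 bins, the median size of the GM domain was 1120 kb, against 920 kb for all 2416 GM domains. A domain with several gained bins is counted once for each of them. The 2368 domains of the 60 h list also had a median of 920 kb. At 60 h, 365 gained bins were flanked by a domain on both sides. A longer domain has more room for a gained bin, and no test was made of these sizes.

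The X chromosome had the largest share of gained boundaries. On X, 43 of 135 bins of the 60 h list were gained, or 31.9%, against 7.81% (chromosome 19) to 23.3% (chromosome 14) on the others. In the other direction, 50 of 142 GM bins on X were lost, or 35.2%. Kept boundaries on X had a median score of 0.674, below the 1.02 of kept bins overall. Of the 43 gained bins on X, 74.4% held no ATAC-seq peak in either condition, against 53.7% of the 350 on autosomes. Kept bins and all bins of X were not counted for peaks, so a trait of X and one of its gained bins were not told apart.

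Open chromatin was sparse in gained bins in both conditions. A 60 h peak lay in 40.2% of gained bins, against 78.0% of kept bins, 43.5% of lost bins and 65.8% of all 63335 bins between the first and last boundary of each chromosome. A GM peak lay in 42.5% of gained bins, so their accessibility by this count was nearly the same before and after. No peak of either list lay in 220 gained bins, or 56.0%, against 19.8% of kept bins and 30.8% of all bins. Bins with low scores held fewer peaks in general: among 289 kept bins with scores inside the interquartile range of the gained ones, 41.9% had no peak.

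Accessible sites new at 60 h were not more common in gained bins than elsewhere. A 60 h peak with no overlapping GM peak lay in 92 gained bins, or 23.4%, against 43.2% of kept bins, 25.0% of lost bins and 39.4% of all bins. Of the 730 peaks of the 60 h list in gained bins, 175, or 24.0%, were absent from the GM list, and over the whole list the share was 23.3% of 189516 peaks. Peaks of the GM list alone were as common, in 93 gained bins, or 23.7%, against 36.9% of all bins. Among the 22 strongest gained bins, 54.5% held a peak of the 60 h list alone and 63.6% held 1 or more of the GM list alone. No peak at all lay in 9.09% of the 22. At promoters inside gained bins, 59.6% overlapped a 60 h peak and 61.5% a GM peak, and 0 of 156 overlapped a peak of the 60 h list alone, against 1.67% of all promoters.

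Loops, which are paired 25 kb anchors from the same Hi-C libraries, were also scarce at gained bins. An anchor of any loop touched 200 gained bins, or 50.9%, against 81.2% of kept bins, 55.6% of lost bins and 72.7% of all bins. Among the 289 kept bins with scores inside the interquartile range of the gained ones, the share was 70.2%. A loop of the 60 h list alone touched 35.4% of gained bins, against 59.7% of kept and 52.3% of all bins. The mean number of loops that spanned a gained bin went from 5.25 in GM to 3.39 at 60 h, a ratio of 0.645. The ratio was 0.621 in kept bins, 0.705 in lost bins and 0.707 over all bins, while the whole list went from 39701 to 31145 loops, a ratio of 0.785. Fewer loops spanned the bin at 60 h in 161 gained bins, more in 38, and the same number in 194. Fewer at 60 h was thus the case in 41.0% of gained bins, 39.0% of lost bins, 62.3% of kept bins and 59.8% of all bins. A bin that no GM loop spanned could not have fewer. The median number of spanning GM loops was 1 in gained and lost bins, 5 in kept bins and 7 over all bins.

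**Figure D2:**
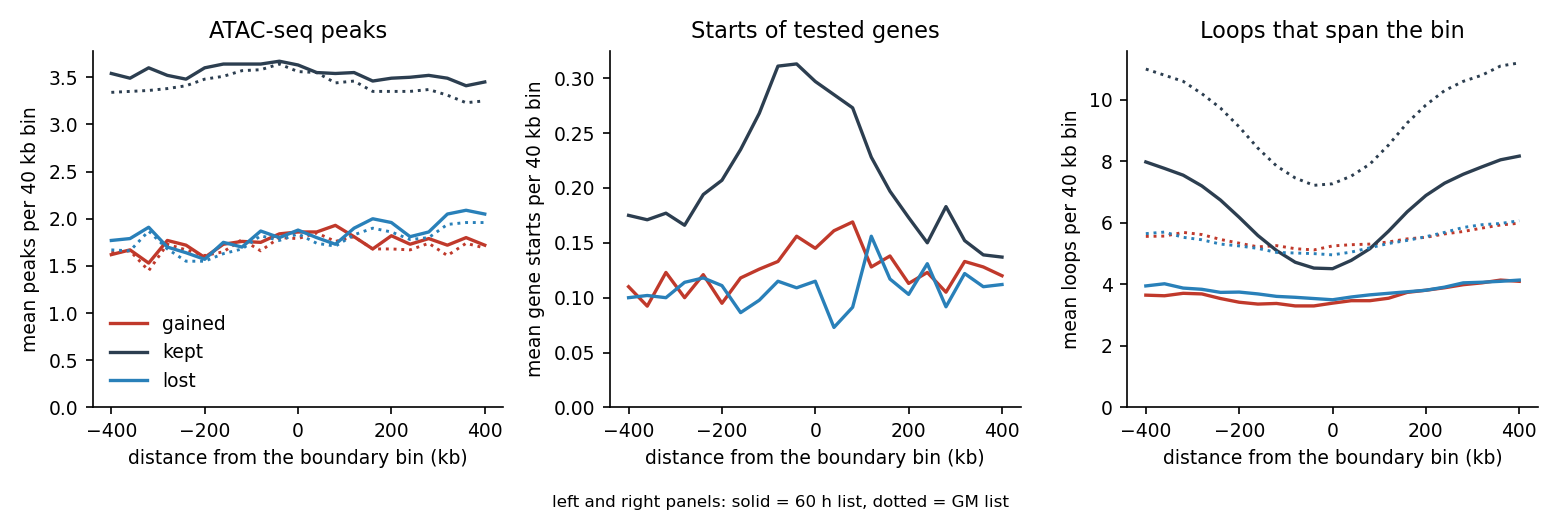
Mean ATAC-seq peaks (left), starts of tested genes (middle) and loops that span the bin (right) per 40 kb bin, by distance in kb from gained (red), kept (dark) and lost (blue) boundary bins. Solid lines are the 60 h lists and dotted lines the GM lists. Gained bins follow lost bins, with 1.86 peaks of the 60 h list per gained bin against 3.63 per kept bin.

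Gained boundaries lay in gene-poor stretches with few expressed genes. No RefSeq gene overlapped 143 gained bins, or 36.4%, against 18.1% of kept bins, 38.1% of lost bins and 27.0% of all bins. A protein-coding gene overlapped 48.3% of gained and 69.5% of kept bins, and a long non-coding RNA gene 13.7% and 26.4%. Coding genes over 300 kb long covered 13% of gained bins, close to the 13.3% of all bins, and 7 gained bins, or 1.78%, overlapped an olfactory receptor gene, against 1.09% of all bins. Of 380 gained bins on chromosomes with listed gene starts, 209, or 55.0%, had no start of a tested gene within 500 kb, against 17.7% of kept and 28.6% of all bins. The median distance to such a start was 640 kb from gained bins, 80 kb from kept bins and 560 kb from lost bins. Starts were listed for 68.2% of tested genes, so these shares and distances are upper limits for every kind of bin.

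The genes that start in gained bins changed as often as genes elsewhere. Starts of 109 genes in the count table were placed in gained bins, and 57 of them, or 52.3%, had enough counts to be tested, the same filter passing 52.4% of all placed genes. By the quasi-likelihood test of edgeR, with p-values adjusted by Benjamini and Hochberg over all 15303 genes, 41 of the 57, or 71.9%, differed between 60 h and GM at an adjusted p under 0.05, against a background of 71.4% of the 10433 tested genes with a listed start. Of the 57, 20 were higher (35.1%, background 36.1%) and 21 lower (36.8%, background 35.4%). A change of at least 2-fold was called for 6, or 10.5%, against 16.4%. Their median log2 fold change was −0.02, and the median size of change regardless of sign was 0.32 against 0.39 over the background genes. The share called was 71.6% of 602 genes in kept bins and 68.6% of 51 in lost bins. Read against the background, these counts are no result about gained boundaries. Replicates are separate libraries whose cultures the labels do not describe, so p-values measure the spread between libraries, which may be technical.

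Pacs1, Neil3 and Vrk1 led the falls among the better expressed genes. Vrk1, a nuclear kinase of dividing cells, was at 38.2, 37.0 and 34.9 CPM in the GM libraries and at 18.2, 18.5 and 19.3 CPM at 60 h. Its log2 fold change was −0.97 ± 0.06 (SE, 3 libraries a group, adjusted p = 6.6e-12), and the groups do not overlap. Neil3, a DNA glycosylase that repairs oxidised bases, went from 17.9, 18.2 and 18.2 CPM to 8.77, 9.05 and 8.28 CPM, a log2 fold change of −1.06 ± 0.08 (adjusted p = 1.1e-10). Both genes were higher at 12 h than in GM, at 42.3 ± 1.61 and 27.7 ± 1.39 CPM (SD, n = 3), and low from 24 h on. Pacs1, a sorting adaptor of the trans-Golgi network, fell from 14.0, 13.1 and 14.5 CPM to 6.32, 6.53 and 6.41 CPM, by −1.11 ± 0.10 (adjusted p = 3.8e-09). All 3 libraries at 60 h were below all GM libraries for each of these genes. The other named falls had log2 fold changes from −0.40 to −0.82. They were Slc4a8, a bicarbonate transporter; Usp10, a deubiquitinase; Cnot3 of the CCR4-NOT deadenylase; Wdr12, a ribosome assembly factor; Alg3, a mannosyltransferase; Agbl5, a tubulin carboxypeptidase; Atf7ip, a partner of the methyltransferase SETDB1; Rab23, a small GTPase; and Tmeff1.

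The rises were smaller in well expressed genes. Naalad2, a membrane peptidase, went from 10.3, 9.90 and 9.87 CPM in GM to 16.8, 16.5 and 17.7 CPM at 60 h, a log2 fold change of 0.76 ± 0.08 (adjusted p = 1.5e-08). Ost4, a small subunit of the oligosaccharyltransferase, went from 48.5, 45.2 and 45.8 CPM to 72.9, 71.7 and 79.8 CPM, a log2 fold change of 0.69 ± 0.06 (adjusted p = 6e-10). Zdhhc17 went from 30.1, 30.7 and 31.1 CPM to 46.8, 44.1 and 45.1 CPM, a log2 fold change of 0.56 ± 0.05 (adjusted p = 7.4e-09). Its level was already 38.9 ± 1.46 CPM (SD, n = 3) at 24 h and stayed near 45 CPM from 48 h. In these 3 genes every 60 h library lay above every GM library. The other named rises ran from 0.28 to 0.61: Emilin1, an elastic fibre glycoprotein; the zinc finger genes Zfp758 and Zfp944; Klhl28; 1810037I17Rik; Smim8; Ubl5, a ubiquitin-like splicing cofactor; Mtmr6, a phosphoinositide phosphatase; and Carf, a calcium-responsive transcription factor. Emilin1, at 0.61 ± 0.16, was at 0.40 without GM library 2. Carf, at 0.28 ± 0.10 (adjusted p = 0.014), lost its call when GM library 2 or 3 was left out (adjusted p = 0.079 and 0.056). Zinc finger genes of 1 cluster can share reads, so the counts of Zfp758 and Zfp944 are uncertain.

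The genes with the largest rises were expressed at low levels and lie below the level set for naming, so they were chosen after their values were seen. Tek was at 0.259, 0.183 and 0.199 CPM in GM and at 1.04, 0.840 and 0.986 CPM at 60 h, a log2 fold change of 2.15 ± 0.41 (adjusted p = 9.9e-05). Summed endothelial markers, Tek among them, went from 0.399–0.550 CPM to 0.917–1.08 CPM, with Pecam1, Cdh5 and Emcn under 0.1 CPM in both. Tek itself made up most of the 60 h sum, and Kdr, the remaining marker, was under 0.1 CPM at 60 h but not in GM. The part of other cells in the level of Tek was not tested. 8430408G22Rik and Rassf4, a Ras-association protein, start in the same bin on chromosome 6. The first went from 0.0741, 0.0611 and 0.0665 CPM to 2.33, 1.80 and 2.17 CPM, a log2 fold change of 4.89 ± 0.42 (adjusted p = 1.4e-09). Rassf4 went from 0.630, 0.489 and 0.499 CPM to 1.58, 1.49 and 1.35 CPM, a log2 fold change of 1.45 ± 0.24 (adjusted p = 2e-05). Efr3b, also below that level, fell. This membrane scaffold of phosphoinositide synthesis had means of 0.526 CPM in GM and 0.244 CPM at 60 h, a log2 fold change of −1.07 ± 0.36 (adjusted p = 0.013).

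**Figure D3:**
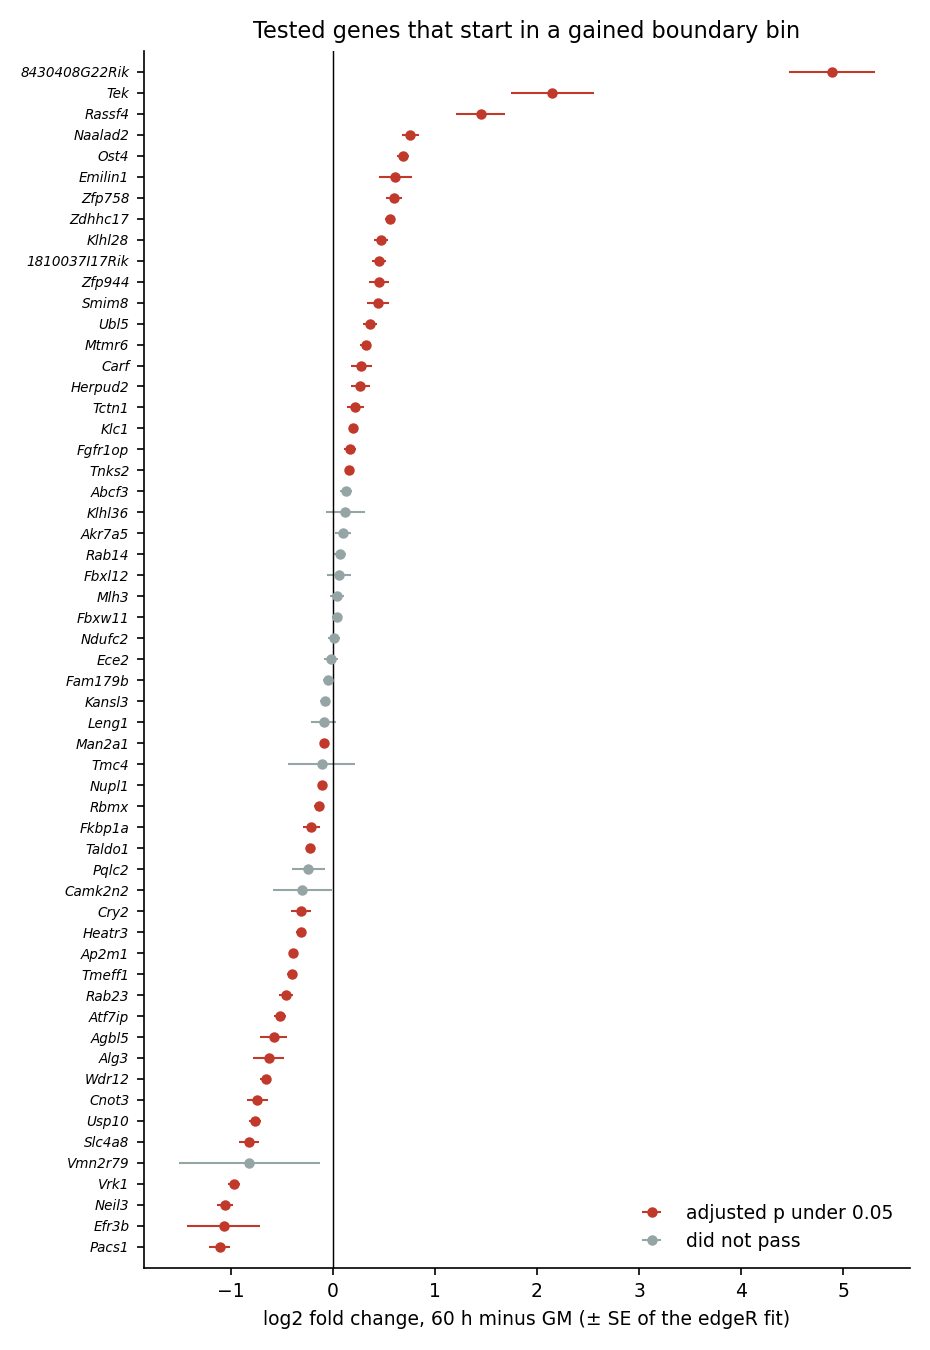
Log2 fold change, 60 h minus GM, of the 57 tested genes that start in a gained bin, with bars of ± SE of the edgeR fit. Red points passed an adjusted p of 0.05 (41 genes) and grey points did not. The calls are split between 20 higher and 21 lower genes, and 3 low-level genes have the largest rises.

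Genes that share a gained bin did not always move together. The 57 genes start in 43 bins, of which 11 hold several tested starts. In 5 of these bins more than 1 gene was called, in 3 of them in both directions. On chromosome 5, in the bin at chr5:30880001-30920000, Ost4 and Emilin1 rose while Agbl5 fell by 0.58 on the log2 scale. On chromosome 1, Carf rose and Wdr12 fell by 0.66 within 1 bin. A tested gene with a listed start lay on each side of 371 gained bins. The nearest on the left and right were both called at 192 of these bins. They went in opposite directions at 83 of the 192, or 43.2%. The share in opposite directions was 48.1% at kept and 45.7% at lost bins. Over all tested genes with a listed start, 36.1% were called higher and 35.4% lower. The difference in log2 fold change between the 2 sides had a median size of 0.64 at each of the 3 kinds of bin. The pair of genes around a gained bin lay a median of 2460 kb apart, against 701 kb around a kept bin.

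Fewer of the 57 genes were called at 12 h than at later times, as over all genes. Against GM, 20 genes were called at 12 h, 42 at 24 h, 42 at 48 h and 40 at 96 h, with backgrounds of 39.4%, 65.6%, 70.2% and 74.3% of tested genes with a start. The comparisons share the GM libraries.

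**Figure D4:**
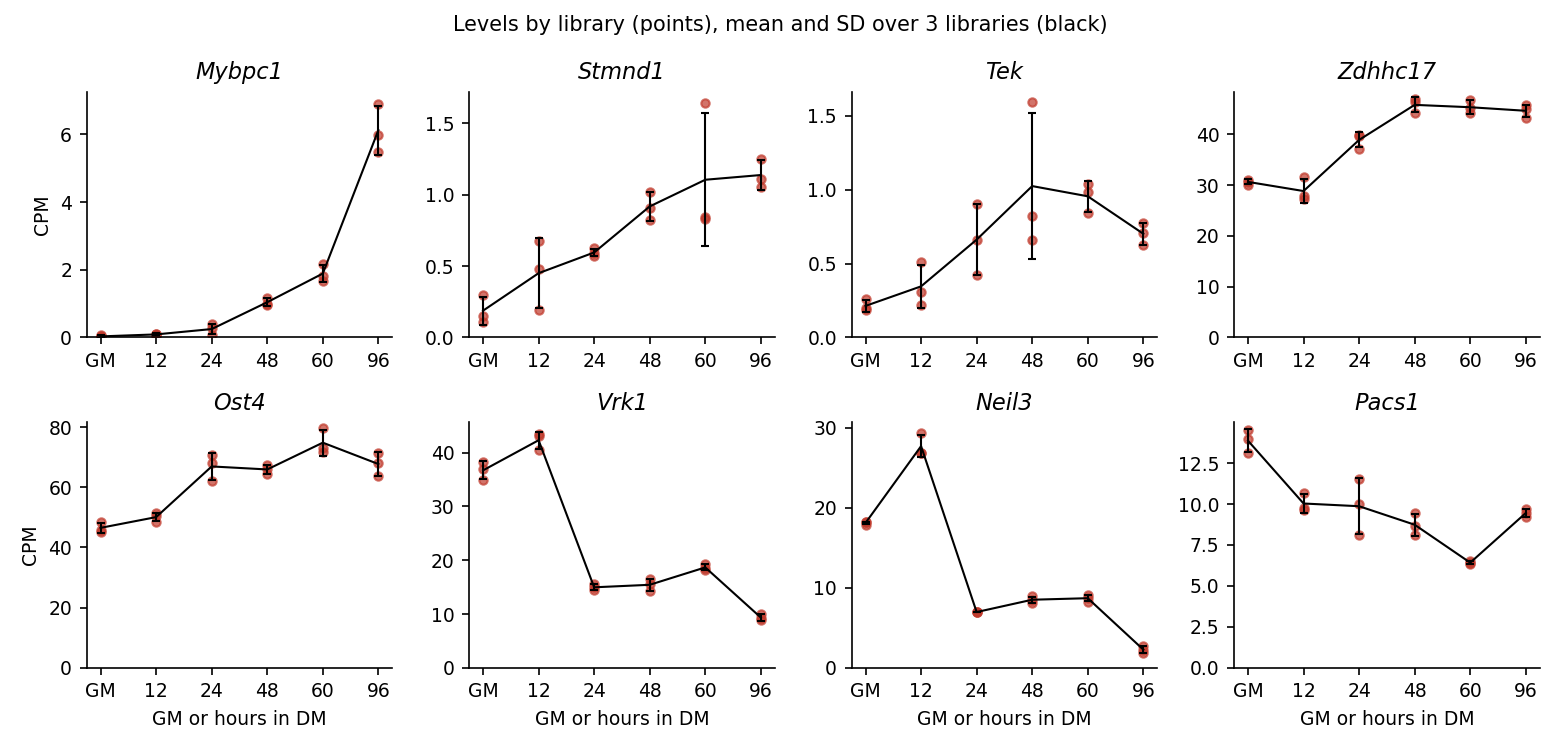
Levels in CPM of 8 genes at or beside gained bins, in GM and after 12 to 96 h in DM, with evenly spaced time points. Points are libraries, and black marks are the mean and SD of 3 libraries. Mybpc1 is near 0 in GM and highest at 96 h, whereas Vrk1 and Neil3 are highest at 12 h.

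Few muscle genes lay at gained boundaries, and few would at the background share. Of a list of 90 muscle differentiation and sarcomere genes, 69 had a listed start, and 0 of these lay in a gained bin, against 0.546% of all tested genes with a start. Mybpc1 alone lay within 1 bin, against 1.72% of all, and 4 genes, or 5.80%, lay within 5 bins, against 5.17% of all. The median distance from a muscle gene to the nearest gained bin was 105 bins, against 78 for all tested genes. The 4 were Mybpc1, Actn2, Rbm24 and Myl2. Actn2, the Z-disc protein alpha-actinin 2, stood 2 bins from a gained bin and went from 7, 4 and 4 counts in GM to 62, 50 and 56 counts at 60 h, a log2 fold change of 3.61 (adjusted p = 6.9e-09). Myl2, a regulatory myosin light chain 4 bins away, had counts of 0 in all GM libraries and of 22, 9 and 14 at 60 h. Against a floor of 3 counts over the group it was at least 16.7-fold higher, and the exact 95% interval of the ratio, for counting error alone, began at 13.

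The bin at chr10:88560001-88600000 joined a gained boundary, new open chromatin and a muscle gene. It lies within Mybpc1, which encodes slow skeletal myosin-binding protein C, a thick filament protein. The bin scored 1.05, and a lost GM boundary with a score of 1.08 lay 120 kb away. Its peaks went from 2 in GM to 8 at 60 h, and 6 of the 8 had no GM counterpart, which with the bin beside Stmnd1 was the most of any gained bin. The highest of the 6 had a fold enrichment of 6.30 in the authors' list and lay at chr10:88590797-88591489, inside the gene. The start of the gene lies 5152 bases beyond the bin edge, and the promoter printed above overlapped a 60 h peak with a fold enrichment of 2.48. Mybpc1 had counts of 0, 1 and 2 in the GM libraries and 52, 48 and 51 at 60 h. The ratio of pooled CPM was 56.0, with an exact 95% interval of 18.8 to 275 that covers counting error alone. Its fitted log2 fold change was 5.65 ± 0.46 (adjusted p = 5.3e-10), and its mean level went from 1.89 CPM at 60 h to 6.13 CPM at 96 h.

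The other bin with 6 new peaks, chr13:46280001-46320000, had no nearby GM boundary. It overlaps Stmnd1, a stathmin-domain gene, scored 0.529, and lay 760 kb from the nearer end of its GM domain. Its peaks went from 4 in GM to 10 at 60 h, the highest new one with a fold enrichment of 7.0. Stmnd1 was at 0.111, 0.153 and 0.299 CPM in GM and at 0.831, 0.840 and 1.64 CPM at 60 h, a log2 fold change of 2.54 ± 0.42 (adjusted p = 1.7e-05). On the other side, 3 bins away, Rbm24, an RNA-binding protein of muscle splicing, went from 21, 27 and 33 counts to 998, 978 and 1303 counts. Its log2 fold change was 5.48 (adjusted p = 1.3e-19). The bins next in number of new peaks lay in or near Myo18a, an unconventional myosin, with 5, Top1, DNA topoisomerase I, with 4, and Otud7b, a deubiquitinase, with 4. A bin near Rhob, a small GTPase, held 5.

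**Figure D5:**
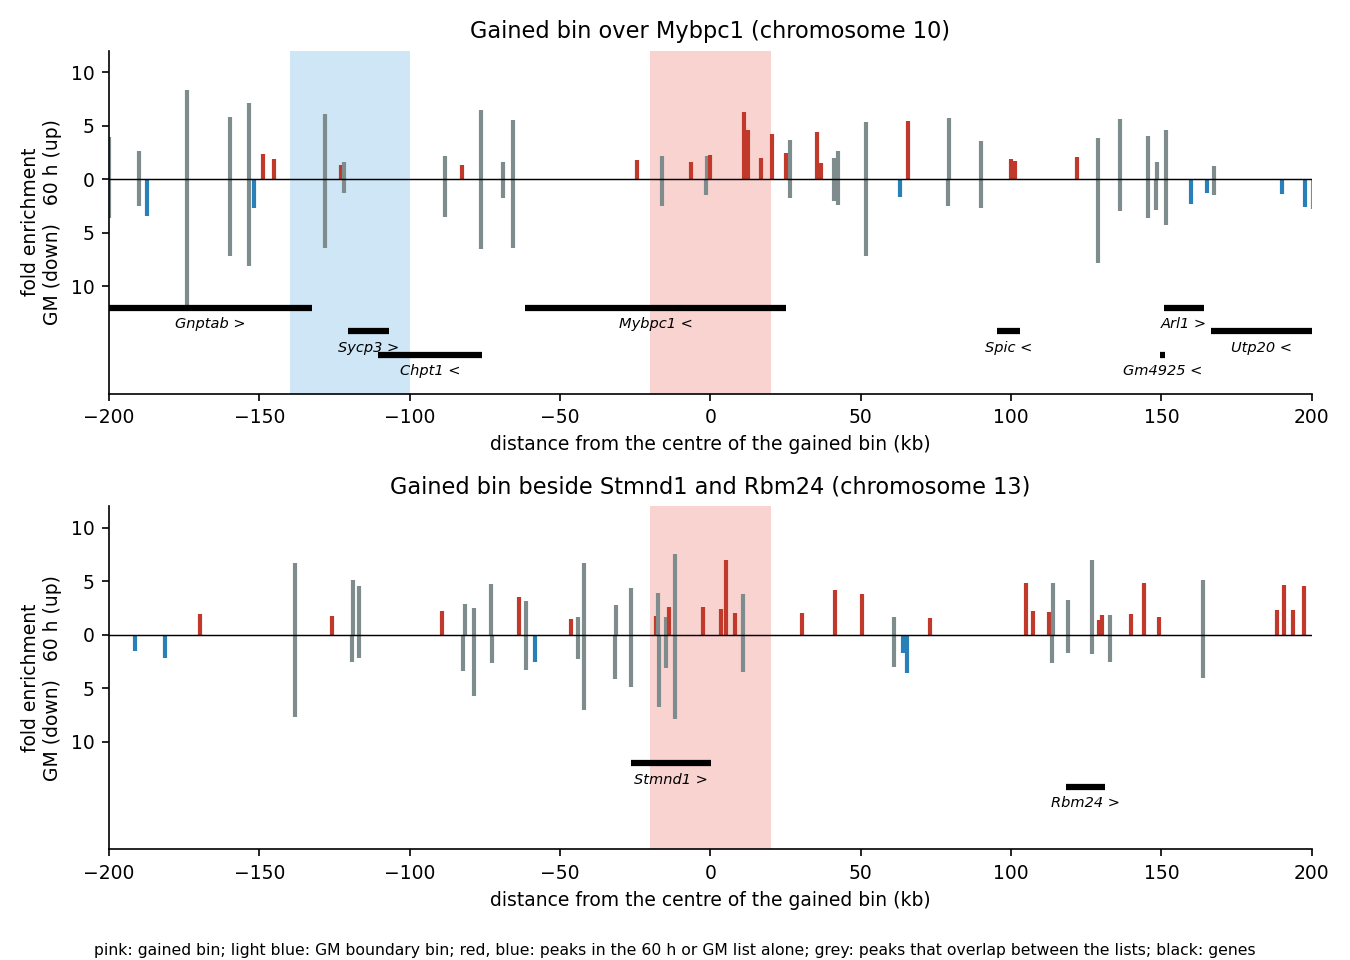
ATAC-seq peaks within 200 kb of the gained bins over Mybpc1 (top) and beside Stmnd1 and Rbm24 (bottom), by distance from the bin centre in kb. Bars up give the fold enrichment of 60 h peaks and bars down that of GM peaks. Red and blue peaks are in 1 list alone, and 6 red peaks lie in each gained bin (pink). A GM boundary (light blue) is 120 kb from the Mybpc1 bin.

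Genes that start in the bin next to a gained one also changed at the background rate. Of 122 tested genes that start there and not in a gained bin, 87 were called, or 71.3%, 42 higher and 45 lower. The background was 71.4% called, 36.1% higher and 35.4% lower, of all tested genes with a listed start. Besides Mybpc1 and Stmnd1, the rises there included Dok7, the activator of the receptor kinase MuSK at the neuromuscular junction. It went from 4.26, 5.96 and 5.02 CPM in GM to 19.5, 19.1 and 20.0 CPM at 60 h, a log2 fold change of 1.93 ± 0.11 (adjusted p = 1.2e-12). Gulp1, an engulfment adaptor, went from 16.6, 16.5 and 21.9 CPM to 57.9, 54.2 and 57.3 CPM, a log2 fold change of 1.62 ± 0.09 (adjusted p = 1.7e-12). Cspg4, the NG2 proteoglycan, went from 56.5, 53.4 and 49.7 CPM to 20.4, 22.9 and 21.9 CPM, a log2 fold change of −1.29 ± 0.08 (adjusted p = 2.3e-12). For all 3 the libraries of GM and 60 h do not overlap. These genes were chosen after their values were seen.

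The listed genes of boundary machinery, which here include cohesin regulators and topoisomerases, were mostly lower at 60 h. The list of 21 genes was chosen with earlier results of these data known, so its counts are a description. Of the 21, 20 were tested, 12 fell and 4 rose. Of all 15303 genes tested, 65.3% were called, 33.1% higher and 32.2% lower. The list's median log2 fold change was −0.28 against 0.01 over all genes. Ctcf went from 59.1, 59.2 and 59.7 CPM to 46.1, 47.8 and 50.1 CPM, a log2 fold change of −0.31 ± 0.06 (adjusted p = 1.4e-04). Rad21, the cleavable cohesin subunit, went from 186, 183 and 186 CPM to 101, 99.0 and 96.8 CPM, a log2 fold change of −0.90 ± 0.05 (adjusted p = 4.6e-13). In both genes all 60 h libraries lay below all GM libraries. The ring subunits Smc1a and Smc3 fell by 0.37 and 0.25, and the loader subunit Nipbl by 0.38. Mau2, the other loader gene listed, rose by 0.15 ± 0.05 (adjusted p = 0.016). Top2a, Cdca5 and Esco2, which act on chromosomes of dividing cells, fell by 1.29, 1.18 and 0.63. Esco1, the cohesin acetyltransferase of interphase, rose by 0.55 ± 0.06 (adjusted p = 1.6e-07), and Stag2, the cohesin subunit that exchanges with Stag1, by 0.28 ± 0.05 (adjusted p = 5.9e-05). Wapl, which unloads cohesin, had a log2 fold change of 0.03 ± 0.05 and did not pass. The part of these levels in the change of boundaries was not tested.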

How the data were processed

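Boundaries, domains, loops, peaks and gene counts were used as deposited, on mm10. The deposited RNA table holds whole-number read counts per gene for 18 libraries, not scaled. The boundary strength in the deposited lists is a score of unstated scale on 40 kb bins of iteratively corrected maps, per the labels. The authors' peak lists give a fold enrichment, a ratio, and −log10 q for each peak. STAR, RSEM, HiC-Pro, Bowtie2 2.2.6 and MACS2 2.2.7 are among the tools in the submitters' processing notes. The sources used here do not name the domain and loop callers, the cutoffs or any pooling of libraries.

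Counts were fitted with edgeR 4.0.16 in R 4.3.3: 15303 of 49089 genes passed filterByExpr, with TMM scaling, a model of group alone (12 residual degrees of freedom) and calls at an adjusted p under 0.05. Values after ± are the SE of the fit unless given as SD. Levels are CPM on the TMM-scaled (effective) library sizes. Region work used Python 3.11.15. Peaks overlapped by 1 base. Of the tested genes 91.6% matched RefSeq GRCm38.p6 by symbol and 68.2% had a listed start, none on chromosome 18, where 13 gained bins lie. Named genes were the 12 largest called rises and 12 largest called falls in gained bins whose mean log2 CPM was 1 or more, plus the muscle list and 6 bins each by score and by new peaks. Counts simulated for the 60 h comparison over 15022 genes gave back 79.1% of 67 changes of 1.5-fold and 86.6% of 67 of 2-fold. Far fewer genes were changed there than the 9987 called in the data, and the lowest expressed were left unchanged. These rates are therefore not the power of the test on the data. No replicate pair was a repeated library, since their counts differed beyond sampling noise in every pair (chi-square of 5.06 to 53.2 per degree of freedom). The members and lists were chosen with earlier results of these data known. Alternatives were other filters, scalings, DESeq2 1.42.0, a replicate block, left-out libraries, and other boundary, peak and anchor rules.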

Additional observations from a re-analysis of the deposited data

How the results depend on the processing

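The number of gained bins depends on the rule: 1188 bins had no GM boundary in the same bin, 245 none within 2 bins, 185 none within 3 bins, and 22 of the 393 reached the median 60 h score. Of genes starting in these bins, 17 of 27 were called (63.0%) with the 2-bin rule and 9 of 12 at or above the median score, 8 of them higher. The background was 71.4% called and 36.1% higher of all tested genes with a listed start, and these sets are small. Placing genes by a start within 1 bin gave 128 of 179 called (71.5%, background 71.4%), and by overlap of the gene gave 100 of 142 (70.4%, background 68.5%). The share of gained bins with a 60 h peak absent from GM (23.4%) was 54.5% at or above the median score and 14.5% with peaks of −log10 q of at least 5. The share with a loop anchor (50.9%) was 42.9% with the 2-bin rule, 72.7% at or above the median score and 43.0% by anchor midpoint. Other cutoffs of the same lists made these shifts, and their causes were not tested. The 41 called genes became 35 to 39 of 57 or 58 when 1 GM or 60 h library was left out. They were 38 of 79 without a count filter, 39 of 53 with a CPM filter, 40 with DESeq2, 41 with RLE size factors and 42 of 56 with the 6 GM and 60 h libraries. Chosen after seeing the data, leaving out the third 24 h library gave 41. Over all genes tested, 59.9% to 61.4% were called with 1 GM or 60 h library left out, against 65.3% with all. The same share was 37.5% without a count filter, 71.6% with a CPM filter, 62.6% with DESeq2, 65.2% with RLE and 69.7% with 6 libraries. The 16 called boundary machinery genes were 14 to 16 with 1 GM or 60 h library left out. Same-numbered GM and 60 h libraries did not deviate together (correlations −0.001, −0.059 and 0.08). With 3 libraries a group this cannot exclude a pairing, and the labels do not state one, so pairing is unknown. A replicate block gave 40 called genes (20 higher, 20 lower) and 16 machinery genes. Of 325 values of 25 named genes under these settings, 323 kept their call and direction and 2 of Carf did not. Low counts limit Tek, Stmnd1 and Mybpc1, and 1 list per condition limits every boundary, loop and peak value.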
